A study of Mus musculus with 6 samples.

Results

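The mural and contractile genes described here are *Acta2*, *Tagln*, *Cnn1*, *Myh11*, *Des*, *Rgs5*, *Kcnj8*, *Cspg4*, *Notch3* and *Mcam*, which are used to recognize pericytes and smooth muscle cells. They were taken by name, with no threshold on their values, and are 10 of the 54309 gene identifiers in the table. All 10 passed the minimum level of 10 normalized counts in the mean of the tumors, as did 13963 genes in all. To address how FF-10101 acts on growing tumors, bulk RNA was sequenced from subcutaneous tumors of MCA205, a mouse fibrosarcoma cell line, in female C57BL/6J mice that were 7 weeks old at inoculation. The Control group (n = 3) drank milliQ water, and the FF-10101 group (n = 3) drank water with 0.1 mg/mL of the drug from day 1 onward. Every tumor was taken on day 8. FF-10101 is a covalent inhibitor of the receptor tyrosine kinases FLT3 and CSF1R, and PDGFRB, the receptor that pericytes use, belongs to the same receptor family. Both groups carried the same transplanted cell line, and the host mice were of 1 strain and 1 sex.

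Pericytes wrap capillaries and are drawn to new vessels by platelet-derived growth factor B from endothelial cells, while smooth muscle cells surround larger vessels and contract through actin and myosin. In tumors the pericyte coat is often loose or incomplete. Contractile proteins such as α-smooth muscle actin are made by myofibroblasts as well, and fibrosarcoma cells are themselves mesenchymal, so a bulk value does not tell which cells made the RNA. In such samples, fewer cells of a type and less RNA per cell cannot be told apart.

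Libraries held 9143806 to 13258258 reads, and the members had 8 to 5003 reads per tumor. Control tumor 1 stood apart from the other controls over the whole table: the chi-square of recovered reads per gene was 70.3 and 94.0 against control tumors 2 and 3, which differed from each other by 14.7. FF-10101 tumor 1 stood apart less, at 26.1 and 40.9 against FF-10101 tumors 2 and 3, which differed by 9.89. Summed levels of 18 endothelial markers were 13453 normalized counts in control tumor 1 against 4909.7 and 4062 in the other controls, and 12175, 13249 and 13113 in the FF-10101 tumors. FF-10101 tumor 1 had a summed level of 12 keratinocyte markers of 1412 against 93.5 to 329 in the other tumors. Members and named genes of the other lists are therefore given for 6 tumors and, for each member whose call differs, without control tumor 1 as well. That tumor was singled out after these levels were seen, so the calls made without it are not independent evidence of an effect of the drug. Over 6 tumors, limma with Benjamini-Hochberg adjustment called 0.0430% of all genes tested at an adjusted p of 0.05 (0.0286% higher and 0.0143% lower). Without control tumor 1 it called 21.9%.

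Among the 10 genes, *Acta2*, *Tagln*, *Cnn1* and *Cspg4* had lower means in FF-10101 tumors, and *Rgs5*, *Mcam*, *Notch3*, *Kcnj8*, *Myh11* and *Des* had higher means. None was called over 6 tumors in either direction (adjusted p of 0.229 to 0.400 by limma, against 0.0430% of all genes called, 0.0286% as higher and 0.0143% as lower), and 5 had an unadjusted p under 0.05, of which 3 were higher and 2 lower (8.77% and 7.49% of all genes tested). Groups did not overlap for 2 members, *Tagln* on the lower side and *Mcam* on the higher side, where 9.37% and 10.9% of all genes did the same. Log2 fold changes ran from −1.76 to −0.76 for the 4 lower members and from 0.69 to 2.05 for the 6 higher. Their median of 0.73 therefore describes no common shift, and the median over all genes was 0.02. A fold change above 0 was seen in 6 of the 10 members and in 51.9% of all genes tested, so the balance of signs is not a result about the members.

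**Figure D1:**
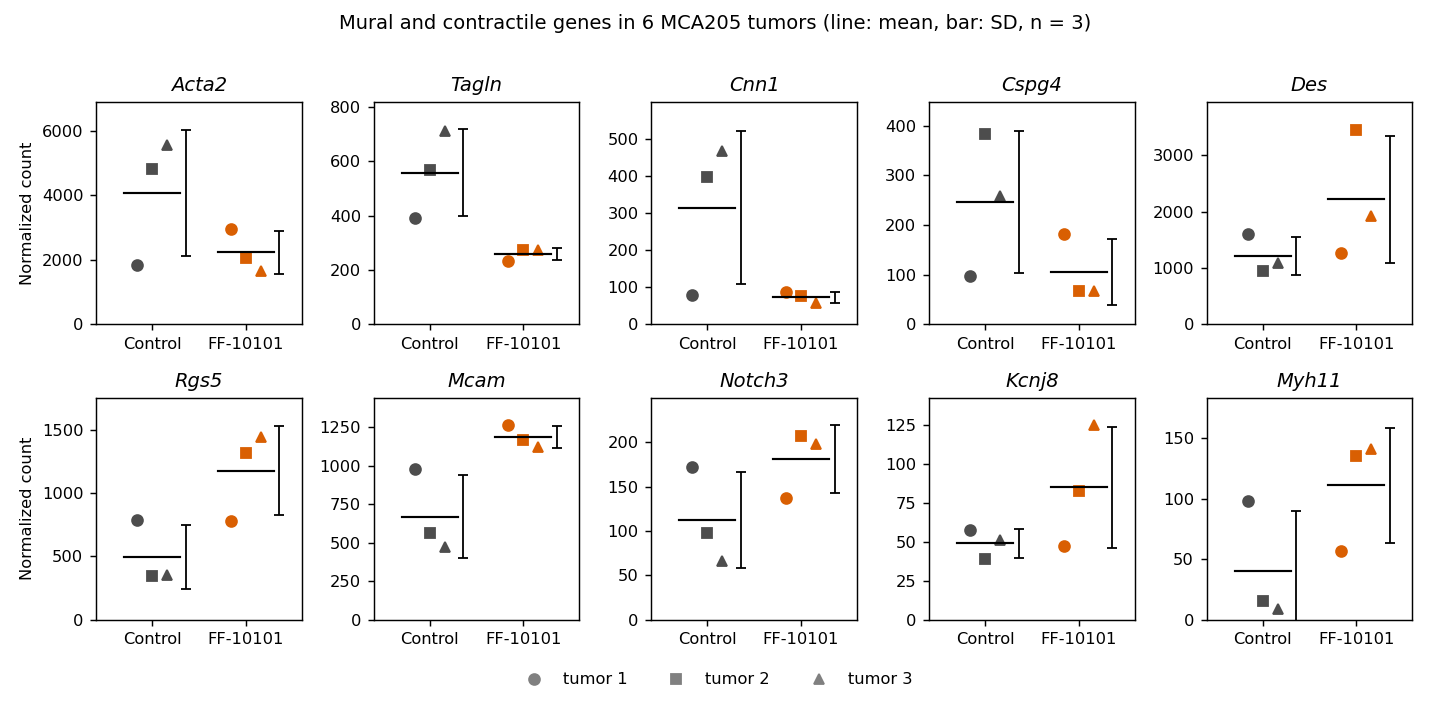
Normalized count of each of the 10 genes in each tumor, with Control in gray and FF-10101 in orange, symbols for the tumor number, a line at the mean and a bar for the SD (n = 3), cut at 0 for *Myh11* in Control. The groups separate for *Tagln* and *Mcam*, and control tumor 1 (circle) lies inside the range of the FF-10101 tumors for the other 8 genes.

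*Acta2* encodes α-smooth muscle actin, the main actin of contractile filaments. Its level was 1848, 4819.5 and 5549.6 normalized counts in control tumors 1, 2 and 3 and 2964, 2066 and 1652 in the FF-10101 tumors. Control tumors 2 and 3 lay above every FF-10101 tumor, while control tumor 1 lay among them, so the groups overlapped. The mean was 4072 ± 1960 (SD, n = 3) in Control and 2227 ± 671 (SD, n = 3) in FF-10101. This gave a log2 fold change of −0.76 with an SE of 0.42 and an adjusted p of 0.390 by limma. Without control tumor 1 it was −1.26, with an adjusted p of 0.00967.

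*Tagln* encodes transgelin, an actin cross-linking protein that appears early in smooth muscle differentiation. Its level was 392, 569 and 713 normalized counts in Control and 231, 271 and 273 in FF-10101, so each treated tumor was under each control. The log2 fold change was −1.07 (SE 0.23, 95% CI −1.61 to −0.53), with an adjusted p of 0.229 by limma. The exact two-sided permutation test gave p = 0.1, which is the smallest value that 3 against 3 tumors allow. Leaving out control tumor 1 gave a log2 fold change of −1.30, with an adjusted p of 0.00303 by limma. *Tagln* is the member whose reads are least certain, since 53.0% of its 31-base stretches also occur in transcripts of *Pcsk7* and of the predicted gene *Gm48529*. Those neighbors had 284 to 392 and 17 to 30 reads per tumor, and their part in the *Tagln* value was not tested. No other member shared more than 6.62% of its stretches with other genes.

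*Cnn1* encodes calponin 1, which binds actin and restrains the myosin motor. Its 3 FF-10101 tumors were close together at 85.5, 74.9 and 56.9 normalized counts. In Control the values were 78.8, 397 and 467, so control tumor 1 lay inside the treated range and the others far above it. Its log2 fold change was −1.76 with an SE of 0.62 and an adjusted p of 0.253 by limma, and it was −2.57 with an adjusted p of 0.000681 without control tumor 1. *Cnn1* had the most negative fold change of the 10 genes in both fits.

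*Myh11* encodes smooth muscle myosin heavy chain, the motor protein that marks mature contractile cells. It had 97.9, 15.2 and 8.87 normalized counts in Control and 56.5, 136 and 141 in FF-10101, the lowest level resting on 8 reads. Control tumors 2 and 3 had the lowest *Myh11* and the highest *Acta2* of the 6 tumors. For *Myh11* the log2 fold change was 2.05 with an SE of 0.82 and an adjusted p of 0.288 by limma, and it was 3.04 with an adjusted p of 0.00497 without control tumor 1. Per 1000 normalized counts of *Acta2*, a ratio chosen after the values were seen, the tumors had 53.0, 3.16 and 1.60 of *Myh11* in Control and 19.1, 65.7 and 85.6 in FF-10101.

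*Des* encodes desmin, an intermediate filament of smooth muscle, pericytes and skeletal muscle. Its level was 1596, 951 and 1087 normalized counts in Control and 1273, 3458 and 1920.0 in FF-10101. FF-10101 tumor 2 was the highest, and FF-10101 tumor 1 lay among the controls. *Des* had a log2 fold change of 0.79 (SE 0.36), with an adjusted p of 0.326 by limma and of 0.0777 without control tumor 1. The summed level of 18 skeletal muscle markers was 9884, 4753 and 6931 normalized counts in Control and 4562.5, 17392 and 10617 in FF-10101, highest in the same tumor as *Des*. *Acta1*, the actin of skeletal muscle fibers, had 2777, 1189.9 and 1569.6 normalized counts in Control and 1319.7, 4575 and 2566 in FF-10101. Of the 17 skeletal muscle markers tested, 14 had a fold change above 0 and none was called by limma in either fit or had an unadjusted p under 0.05 over 6 tumors. *Des* per unit of the summed markers ranged from 0.157 to 0.279 over the tumors, and the part of skeletal muscle in its value was not tested.

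*Rgs5*, a regulator of G protein signaling and a classical marker of pericytes on growing vessels, had the highest fold change of the 5 pericyte members. It had 787, 342 and 353 normalized counts in Control and 775, 1312.5 and 1438 in FF-10101. FF-10101 tumors 2 and 3 lay above every control, and FF-10101 tumor 1 was slightly under control tumor 1. The mean was 494 ± 254 (SD, n = 3) in Control and 1175 ± 352 (SD, n = 3) in FF-10101. The log2 fold change was 1.31 (SE 0.37, 95% CI 0.47 to 2.16), with an adjusted p of 0.229 by limma, and 1.71 with an adjusted p of 0.00463 without control tumor 1.

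*Mcam* encodes CD146, an adhesion molecule of pericytes and smooth muscle that endothelial cells carry too. It had 978, 562 and 470.3 normalized counts in Control and 1269, 1167 and 1126 in FF-10101, so every treated tumor was above every control. Treated tumors were closer to each other than the controls, with a highest-to-lowest ratio of 1.13 against 2.08. The log2 fold change was 0.90 (SE 0.26), with an adjusted p of 0.229 by limma and an exact two-sided permutation p of 0.1. Without control tumor 1 the adjusted p was 0.00197.

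*Notch3*, the Notch receptor of mural cells, had 172, 97.8 and 66.6 normalized counts in Control and 137, 207 and 198 in FF-10101. Control tumor 1 exceeded FF-10101 tumor 1, and the remaining controls were the lowest tumors. *Notch3* had a log2 fold change of 0.77 with an SE of 0.36 and an adjusted p of 0.333 by limma, and 1.13 with an adjusted p of 0.0223 without control tumor 1. *Kcnj8*, the pore subunit of the vascular potassium channel that ATP closes, had 57.4, 39.1 and 51.0 normalized counts in Control and 47.4, 82.5 and 125 in FF-10101. Its log2 fold change of 0.69 (SE 0.38) had an adjusted p of 0.400 by limma, and *Kcnj8* was the 1 member whose groups overlapped even without control tumor 1. Its partner subunit *Abcc9*, the sulfonylurea receptor of that channel, had 61.9, 36.9 and 31.1 normalized counts in Control and 55.8, 136 and 143 in FF-10101. The log2 fold change of *Abcc9* was 1.29, with an adjusted p of 0.248 by limma and of 0.0326 without control tumor 1.

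*Cspg4* encodes NG2, a proteoglycan of pericytes that mesenchymal tumor cells can carry as well, and it was the pericyte member with a lower mean. It had 96.8, 382.5 and 258 normalized counts in Control and 182.5, 66.2 and 67.6 in FF-10101. Control tumors 2 and 3 were the highest of the 6, FF-10101 tumors 2 and 3 the lowest, and both tumors numbered 1 lay between. In *Cspg4* the log2 fold change was −1.17 with an SE of 0.57 and an adjusted p of 0.345 by limma, and −1.74 with an adjusted p of 0.0272 without control tumor 1. Thus 2 genes used for the same cell type, *Rgs5* and *Cspg4*, had mean differences of opposite sign over the same tumors.

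Without control tumor 1, limma called 8 of the 10 members (4 higher, 4 lower), where it called 21.9% of all genes tested (12.0% higher, 9.88% lower). *Des* and *Kcnj8* were the members not called. Groups no longer overlapped for 9 members (5 higher, 4 lower), where 54.1% of all genes did not overlap either (28.4% higher, 25.7% lower). The median log2 fold change was 0.90 over the members, again a mix of both signs, and 0.04 over all genes. No member changed direction when any other tumor was left out or under the other alternatives tried, of which some cannot alter a fold change. Other tumors drew some values nearer to 0. The log2 fold change was −0.46 for *Acta2* and 0.45 for *Notch3* without control tumor 3 (adjusted p of 0.805 and 0.744 by limma), and −0.75 for *Cspg4* without control tumor 2 (0.668). Without control tumor 3 it was −0.87 for *Tagln* (0.61), −1.30 for *Cnn1* (0.637), 1.37 for *Myh11* (0.684) and 0.68 for *Mcam* (0.61). Without control tumor 2 it was 1.11 for *Rgs5* (0.51). It was 0.40 for *Des* without FF-10101 tumor 2 (0.720) and 0.36 for *Kcnj8* without FF-10101 tumor 3 (0.808), though 1.05 for *Kcnj8* without FF-10101 tumor 1 (0.257). The 6-tumor and 5-tumor fits differ by a tumor that the labels give no reason to remove.

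**Figure D2:**
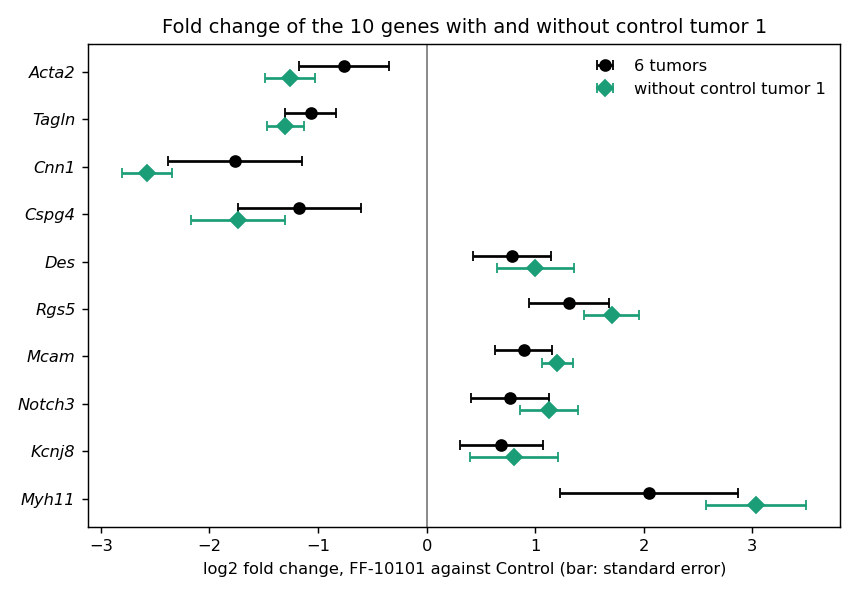
Log2 fold change of each gene, FF-10101 against Control, with its standard error, for 6 tumors (circles) and without control tumor 1 (diamonds). The sign of each gene is the same in both fits, and each of the 10 fold changes lies farther from 0 without that tumor, *Cnn1* moving from −1.76 to −2.57 and *Myh11* from 2.05 to 3.04.

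The pericyte members and vessel markers were set beside each other, since control tumor 1 differed in its endothelial level. *Pecam1*, which encodes the endothelial junction protein CD31, had 1966.5, 809 and 605 normalized counts in Control and 1849.8, 2400.3 and 2566 in FF-10101. *Cdh5*, or VE-cadherin, had 1267.5, 541 and 335 against 1249, 1327 and 1262. All 18 endothelial markers had a fold change above 0, with a median of 1.12, and 9 had an unadjusted p under 0.05, all higher (8.77% of all genes). None was called over 6 tumors by limma. Since control tumor 1 was singled out for this very level, no call without it is given for these markers. *Rgs5* per unit of *Pecam1* was 0.400, 0.423 and 0.584 in Control and 0.419, 0.547 and 0.560 in FF-10101, so its highest tumor was 1.46 times its lowest. This range holds for *Pecam1* as the divisor only. *Plvap*, another of the 18 markers, was highest in control tumor 1, unlike *Rgs5*. It had 3171, 607 and 447 normalized counts in Control and 2219, 2352.5 and 2278 in FF-10101. *Mcam* per unit of *Pecam1* ranged from 0.439 to 0.778 and *Notch3* from 0.0739 to 0.121, and in each of these ratios the groups overlapped except for *Notch3*, which was lower in every FF-10101 tumor. The ratio to *Pecam1* varied more for *Kcnj8*, from 0.0256 to 0.0844 or 3.30-fold, and for *Pdgfrb*, from 0.472 to 1.60 or 3.38-fold, and both were highest in control tumor 2 or 3. *Cspg4*, the remaining pericyte member, ran the other way from *Rgs5*, at 0.0492, 0.473 and 0.428 in Control and 0.0987, 0.0276 and 0.0263 in FF-10101, an 18.0-fold range. *Acta2* per unit of *Pecam1* was 0.940, 5.96 and 9.18 in Control and 1.60, 0.861 and 0.644 in FF-10101, a 14.3-fold range. Over the other contractile members the range was 34.9-fold for *Cnn1*, 11.1-fold for *Tagln*, 3.85-fold for *Myh11* and 2.61-fold for *Des*. These ratios were chosen after the values were seen and are descriptions without a test. Whether the endothelial level accounts for the *Rgs5*, *Mcam* and *Notch3* values was not tested.

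**Figure D3:**
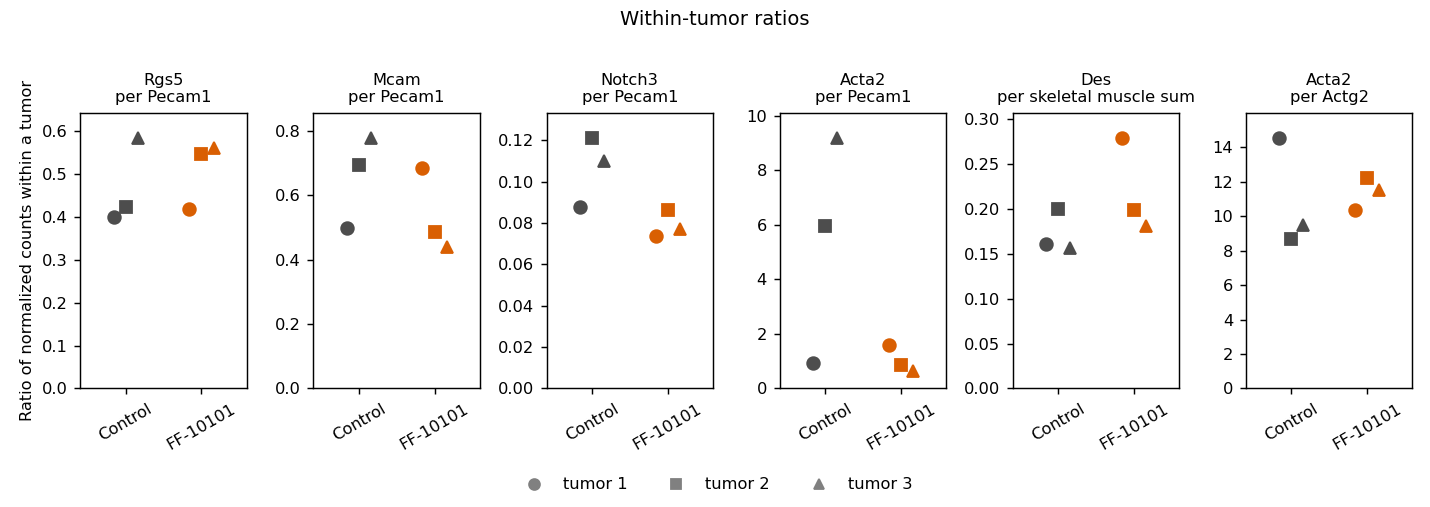
Ratios of normalized counts within each tumor on linear axes from 0, with Control in gray and FF-10101 in orange and symbols for the tumor number. *Rgs5* per *Pecam1* stays between 0.400 and 0.584, whereas *Acta2* per *Pecam1* is 5.96 and 9.18 in control tumors 2 and 3 and at most 1.60 elsewhere.

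Levels between members were compared per kilobase of the longest transcript. *Acta2* was the highest with a mean of 1548 normalized counts per kilobase over the 6 tumors, followed by *Des* at 566.1, *Mcam* at 311, *Tagln* at 256, *Rgs5* at 204, *Cnn1* at 81.2, *Kcnj8* at 26.3, *Cspg4* at 21.6, *Notch3* at 18.3 and *Myh11* at 11.6. This order differed between the groups. In Control *Tagln* at a mean of 350 was above *Mcam* at 224, and *Cnn1* at 132 above *Rgs5* at 121. In FF-10101 *Mcam* at 397 and *Rgs5* at 287 were above *Tagln* at 162, and *Kcnj8* at 33.4 was above *Cnn1* at 30.4. The ranges over tumors overlapped in each of the 9 neighboring pairs of the 6-tumor order. With the mean transcript length in place of the longest, *Notch3* moved from rank 9 to rank 7 and the order of the 6 highest genes was the same. Among the contractile members *Acta2* was thus far more abundant per kilobase than *Myh11*, at a mean of 2001 against 6.21 in Control and 1094 against 17.0 in FF-10101.

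Other contractile genes of smooth muscle were followed through a list of 30, of which 28 passed the minimum level. None was called over 6 tumors, 6 had an unadjusted p under 0.05, all higher (8.77% of all genes), and 19 fold changes were above 0 and 9 below, with a median of 0.25. Of the 28, 5 were called higher and 3 lower without control tumor 1, where 12.0% and 9.88% of all genes were. The most abundant were *Myl6*, a myosin light chain found in many cell types, *Tpm1*, a tropomyosin, and *Flna*, an actin cross-linker, with log2 fold changes of −0.39, 0.25 and −0.44. Of these, *Myl6* was called without control tumor 1, at −0.61 with an adjusted p of 0.0407 by limma, and was at −0.17 (0.859) without control tumor 3. *Actg2*, the smooth muscle γ-actin, had 127, 554 and 583 normalized counts in Control and 286, 169 and 143 in FF-10101, highest in control tumors 2 and 3 as *Acta2* was. *Acta2* per unit of *Actg2* ranged from 8.70 to 14.5 over the 6 tumors. The *Actg2* log2 fold change was −0.85 with an adjusted p of 0.481 by limma, −1.57 with an adjusted p of 0.00841 without control tumor 1, and −0.48 (0.867) without control tumor 3. *Myl9*, the regulatory light chain of smooth muscle myosin, had 384, 1366 and 1783 normalized counts in Control and 551, 484 and 339 in FF-10101, whereas *Mylk*, the kinase that phosphorylates it, had 260.03, 91.3 and 87.6 against 254, 349.6 and 346. Both were chosen after their values were seen. *Kcnmb1* and *Pln*, other genes of mature smooth muscle and also chosen after their values were seen, were under the minimum level at 0 to 16.0 and 0 to 3.26 normalized counts, where a count of 0 allows up to 2.29 to 3.38 normalized counts depending on the tumor.

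The CArG box is the DNA element bound by serum response factor, which drives many contractile genes, and it was looked for in both strands of the RefSeq promoter windows (GRCm38.p6, 250 bases before to 50 after a gene's start), allowing 1 of the central bases to be C or G. Windows of 8 members were searched, and those of *Tagln* and *Myh11* were not. *Acta2* was the 1 member with a match (12.5% of 8), where 11.3% of 27025 genes had at least 1. A strict CArG box was found in 0 of the 8 and in 1.81% of all genes. In the contractile list, 9 of 26 genes had a match (34.6%), 5 of them strict, and their log2 fold changes ran from −1.12 to 1.02 with a median of 0.26, against a median of 0.25 for the 19 tested genes of the list that had no match or no window. The 250 bases before the start of *Acta2* and of *Myl9* are printed, with the matches in capitals, as the member with a match and a contractile gene chosen after its values were seen. Among the 9 listed genes with a match, *Myl9*, *Myl6* and *Cnn2* were highest in control tumors 2 and 3, as *Acta2* was, and the other 6 were not. The *Acta2* stretch lies at chr19:34255374-34255623 on the minus strand, with matches starting 84 and 34 bases before the start. The *Myl9* stretch lies at chr2:156775214-156775463 on the plus strand, with a strict match 161 and another match 99 bases before the start. A match is a description of the letters and not evidence of binding.
Acta2: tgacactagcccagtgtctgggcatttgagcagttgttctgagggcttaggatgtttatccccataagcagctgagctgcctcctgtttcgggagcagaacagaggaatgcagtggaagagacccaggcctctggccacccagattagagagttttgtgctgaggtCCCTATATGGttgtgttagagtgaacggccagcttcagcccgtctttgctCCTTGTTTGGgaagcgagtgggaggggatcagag
Myl9: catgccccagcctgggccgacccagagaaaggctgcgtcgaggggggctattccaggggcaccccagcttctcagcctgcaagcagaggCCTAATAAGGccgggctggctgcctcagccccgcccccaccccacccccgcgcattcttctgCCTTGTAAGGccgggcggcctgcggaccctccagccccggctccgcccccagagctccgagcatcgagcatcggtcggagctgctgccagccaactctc

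The regulators of contractile genes were described from a list of 20, of which 18 were tested and none was called by limma over 6 tumors, while 3 higher and 1 lower had an unadjusted p under 0.05 (8.77% and 7.49% of all genes). *Srf*, which encodes serum response factor, had 689, 1155 and 1089 normalized counts in Control and 674, 511 and 457 in FF-10101, so each treated tumor was below each control. Its log2 fold change was −0.82 (SE 0.24), with an adjusted p of 0.229 by limma and an exact two-sided permutation p of 0.1, and −1.05 with an adjusted p of 0.00778 without control tumor 1. *Myocd*, the smooth muscle coactivator of serum response factor, was not tested, since it had 0 to 4 reads per tumor. In the list 11 fold changes were above 0 and 7 below, with a median of 0.12. *Rhoa*, *Tgfbr2* and *Prrx1*, the most abundant of the list, which encode a small GTPase of actin control, a receptor for transforming growth factor β and a mesenchymal transcription factor, had log2 fold changes of −0.07, 0.23 and 0.43. The *Rhoa* value was 0.11 without control tumor 1. The calls without that tumor were *Srf* as lower and, named for its call, *Rock1*, a kinase that promotes contraction, as higher (log2 fold change 0.83, adjusted p of 0.0166 by limma), where 9.88% and 12.0% of all genes were called.

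Beyond the members, 22 of 25 listed pericyte genes were tested, and 20 had a fold change above 0, against 51.9% of all genes tested. None was called over 6 tumors, and 11 had an unadjusted p under 0.05, all higher (8.77% of all genes). Groups did not overlap for 8, all higher (10.9% of all genes). The median log2 fold change was 0.84, and without control tumor 1 9 genes were called higher and 1 lower, against 12.0% and 9.88% of all genes. *Pdgfrb*, the receptor for platelet-derived growth factor B, had 1203, 1292 and 769.8 normalized counts in Control and 1889, 1426.5 and 1211.5 in FF-10101, with a log2 fold change of 0.48 (SE 0.25) and an adjusted p of 0.365 by limma. *Anpep*, the aminopeptidase CD13, and *Ebf1*, a transcription factor of several lineages, had log2 fold changes of 1.14 and 0.39, with adjusted p of 0.348 and 0.306 by limma. *Anpep* was at 1.84 (adjusted p of 0.00369 by limma) without control tumor 1 and at 0.56 (0.769) without control tumor 3. *Heyl*, a target of Notch signaling in mural cells, had 18.9 to 42.3 normalized counts in all tumors and a log2 fold change of 0.28. *Atp13a5* and *Slc6a20a*, which mark pericytes of the brain in particular, had no read in any tumor and were named for that reason. *Angpt1*, the angiopoietin that mural cells give to endothelium, had 278, 286 and 197 normalized counts in Control and 391, 556 and 662 in FF-10101, and was chosen after its values were seen.

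**Figure D4:**
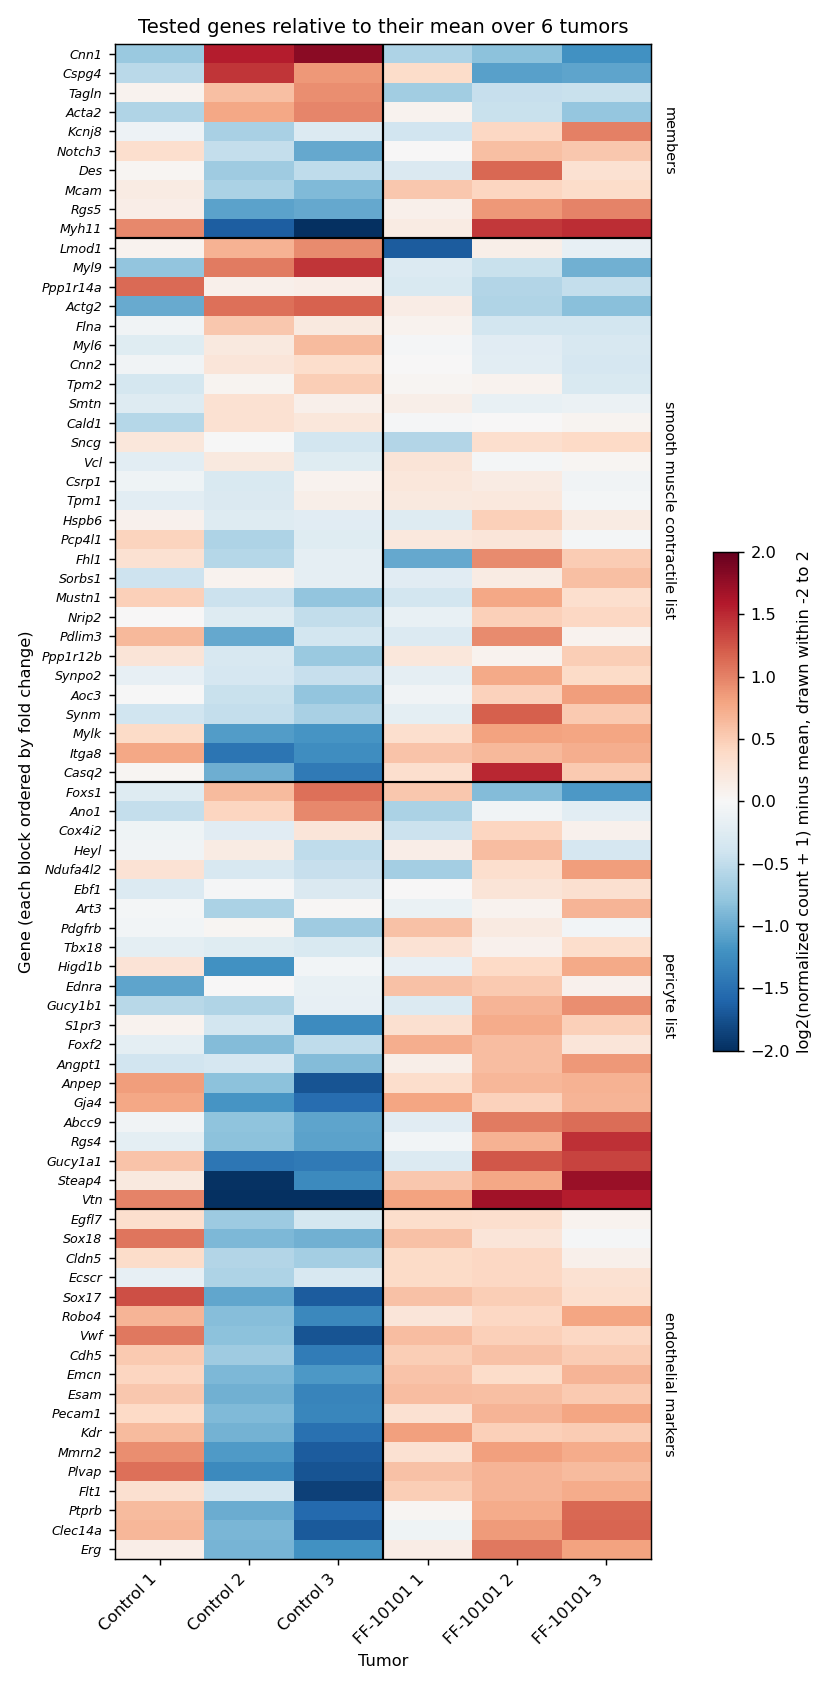
Log2(normalized count + 1) of each tested gene minus its mean over the 6 tumors, for the 10 members, the smooth muscle contractile list, the pericyte list and the endothelial markers, with colors held within −2 to 2. Control tumors 2 and 3 are blue for all 18 endothelial markers and for *Rgs5*, *Mcam* and *Myh11*, and red for *Cnn1*, *Cspg4*, *Tagln*, *Acta2*, *Actg2* and *Myl9*, while control tumor 1 has the color of the FF-10101 tumors for most of these genes.

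Signals that recruit and shape mural cells were followed through 23 genes, of which 22 were tested. None was called by limma over 6 tumors, 6 had an unadjusted p under 0.05, all higher (8.77% of all genes), 18 fold changes were above 0, and the median was 0.56. *Pdgfb*, the endothelial ligand that recruits pericytes, had 549, 290.2 and 306 normalized counts in Control and 377, 420.1 and 348 in FF-10101, a log2 fold change of 0.06. *Pdgfra*, the receptor on fibroblasts, had 3444.5, 3087 and 2169 against 4270.0, 4479 and 4780.3 and did not overlap, with a log2 fold change of 0.66 and an adjusted p of 0.229 by limma, or 0.0154 without control tumor 1. *Jag1*, a Notch ligand that endothelial cells present to mural cells, had 169.97, 177 and 142 against 275, 262 and 192, with a log2 fold change of 0.56 and an adjusted p of 0.268. *Tgfb3*, a transforming growth factor β, and *Notch2*, another Notch receptor, had log2 fold changes of −0.02 and 0.13. Without control tumor 1, 9 genes of the list were called higher and 1 lower, against 12.0% and 9.88% of all genes. The list includes genes of endothelial cells, and that tumor was singled out for its endothelial level. These calls are therefore no evidence about signals to mural cells.

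Markers of other cells in the tumor were set beside the members. Of 18 fibroblast markers none was called by limma over 6 tumors, 6 had an unadjusted p under 0.05, all higher (8.77% of all genes), and 9 were called higher without control tumor 1 (12.0% of all genes). Their median log2 fold change was 0.68, and their summed level was 314020, 159450 and 120220 normalized counts in Control against 388700, 286260 and 273010 in FF-10101. The most abundant, *Col3a1*, *Sparc* and *Col1a2*, had log2 fold changes of 1.01, 0.93 and 0.63, and of 1.51, 1.26 and 1.08 without control tumor 1, where adjusted p were 0.00415, 0.00220 and 0.0274 by limma. Without control tumor 3 they were 0.66, 0.76 and 0.30, with adjusted p of 0.714, 0.630 and 0.883. Of 12 macrophage markers, 11 had a fold change below 0 with a median of −0.72, 8 had an unadjusted p under 0.05, all lower (7.49% of all genes), and 8 did not overlap, all lower (9.37% of all genes). With control tumor 1 left out, 5 were called lower (9.88% of all genes) and 8 of 12 had a fold change below 0, that of *Csf1r*, *Cd68* and *Fcgr1* having turned positive. Over 6 tumors *Cx3cr1*, the fractalkine receptor, was called as lower (log2 fold change −3.49, adjusted p of 0.00287 by limma, lower in 3 of 3 FF-10101 tumors). That call was lost without control tumor 2, at an adjusted p of 0.0682, and held when any other tumor was left out. The part of these cells in the values of the members was not tested.

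For *Acta2* and *Rgs5*, the tested genes outside the members with the most similar profile were found by the root mean square difference of log2 values, each centred on its mean over the 6 tumors. For *Acta2* these were *Nop56* at 0.046, *Gemin2* at 0.087 and *Wdr4* at 0.088. *Nop56*, a protein of small nucleolar RNA complexes, had 776, 2116 and 2480.3 normalized counts in Control and 1278, 903 and 769 in FF-10101. For *Rgs5* they were *Gpr171* at 0.051, *Hgf* at 0.115 and *Sult1a1* at 0.132. *Hgf*, the hepatocyte growth factor made by mesenchymal cells, had 325, 152 and 126 normalized counts in Control and 335, 503 and 532 in FF-10101. These are descriptions over 6 tumors picked from all tested genes.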

How the data were processed

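RNA of 6 tumors, 3 Control and 3 FF-10101 (biological replicates per the labels), was analysed. Per the submitters' processing notes, the authors used fastp 0.19.5, Salmon 1.5.1 and DESeq2 1.22.1, with the GENCODE vM27 annotation according to the methods. The deposited values are log2 and look like output of the authors' DESeq2 variance-stabilizing step, although normalized counts had been planned for. Undoing that step gave whole reads (tolerance 0.001) for 100% of 325854 values. Dividing a tumor's reads by its size factor gave normalized counts.

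Log2(normalized count + 1) was fitted with limma 3.58.1 in R 4.3.3 (lmFit, eBayes with trend, group as the sole term) over 13963 genes whose mean reached 10, and p values were adjusted at 0.05 after Benjamini and Hochberg. Fold changes of genes with low counts are understated on this scale. Steps were tested on simulated data. Symbols came from GENCODE vM21 (51484 of 54309 identifiers), and transcript lengths and shared 31-base stretches from its transcripts. Promoters came from RefSeq. Total reads were 9643535, 9143806 and 9186789 in Control and 13258258, 9277019 and 11513555 in FF-10101. A count of 0 allows up to 3 reads, and such limits cover counting error only. Pairs of tumors differed beyond sampling noise.

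The members and the lists were chosen with earlier results of these data known. Named genes are the members, the 3 most abundant genes of each other list and any gene called in it, 12 genes set by name (*Pdgfrb*, *Pdgfra*, *Pdgfb*, *Abcc9*, *Myocd*, *Srf*, *Jag1*, *Heyl*, *Acta1*, *Actg2*, *Pecam1* and *Cdh5*) and the 3 genes nearest to *Acta2* and to *Rgs5*. Genes chosen outside this rule are said to be so or are named for the property that their sentence gives. The alternatives were other pseudocounts, minimum levels and scalings, the deposited log2 values, no trend, array weights, a replicate block, mean transcript length and each tumor left out.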

Additional observations from a re-analysis of the deposited data

How the results depend on the processing

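The number of genes called, 6 over 6 tumors, was 17 with no minimum level, 3 with a mean of at least 50, and 8365 with limma array weights, which gave control tumor 1 a weight of 0.139 against 5.39 for control tumor 2 and 8.08 for FF-10101 tumor 2. Leaving out each tumor in turn gave 1 to 3051 genes, the highest without control tumor 1. For the members, 170 of 170 values over 17 alternatives had the main direction. The minimum levels, the fit with no trend and the replicate block leave these fold changes unchanged by construction, so their agreement adds nothing. With array weights all 10 were called (6 higher, 4 lower), where 8365 of the 13963 genes tested were called. Without control tumor 1, 8 were called, where 21.9% of all genes were. No member was called otherwise, limma-voom on the recovered reads included. With the replicate number as a block, 1 gene and no member was called. Tumors of the same number correlated at −0.288, −0.0397 and −0.277 in their deviations from the group means, and other pairs at −0.126 to 0.315. With 3 tumors a group such deviations sum to 0, so these correlations cannot show whether the numbers pair tumors. In the limma fit with that block *Cx3cr1* had an adjusted p of 0.126. Some other named genes changed sign. With array weights the log2 fold change was 0.0848 for *Rhoa*, −0.00846 for *Krt14*, 0.107 for *Prx* and 0.164 for *Csf1r*. With each tumor left out in turn it ran from −0.166 to 0.107 for *Rhoa*, −0.298 to 0.315 for *Tgfb3*, −0.108 to 0.271 for *Notch2*, −0.116 to 1.02 for *Atp2a1*, −1.67 to 2.97 for *Krt14*, −1.28 to 3.04 for *Krt5*, −0.240 to 0.140 for *Prx*, −0.524 to 0.140 for *Csf1r* and −0.107 to 0.353 for *Pdgfb*. The cause of these shifts was not tested. With mean transcript length, the level per kilobase was 416 for *Tagln*, 346 for *Rgs5*, 160 for *Cnn1*, 33.5 for *Notch3* and 557 for *Mcam*. With 3 tumors a group, no exact permutation p can fall below 0.1, and at 8 to 159 reads per tumor *Myh11* had the lowest count of the members.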

Other observations

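Values of the lists that the comparisons above use least are given here. Of 12 keratinocyte markers 8 were tested, 7 of them with a fold change above 0. *Krt5*, *Krt14* and *Sfn*, the most abundant, had log2 fold changes of 1.60, 1.31 and 0.95, and *Krt14* had no read in 4 of the 6 tumors, 31.1 normalized counts in control tumor 3 and 484 in FF-10101 tumor 1. The adipocyte markers (8 of 10 tested, median log2 fold change 0.49) had summed levels of 1902, 897 and 1278 normalized counts in Control and 1152.5, 1796 and 2526 in FF-10101. *Pnpla2*, *Fabp4* and *Lipe*, their most abundant genes, had log2 fold changes of 0.33, 0.51 and 0.66. The Schwann cell markers (6 of 10 tested, median 0.53) summed to 2401, 741 and 897 in Control and 1766.5, 2539 and 2995 in FF-10101, with log2 fold changes of 1.38, 0.47 and −0.07 for *Pmp22*, *Mbp* and *Prx*. Without control tumor 1, limma called *Pmp22* at 2.01 (adjusted p of 0.000703), *Lipe* at 1.21 (0.00622) and *Pnpla2* at 0.74 (0.0185). The most abundant macrophage markers, *C1qa*, *C1qb* and *Csf1r*, had log2 fold changes of −0.70, −0.65 and −0.25, and the endothelial *Plvap* and *Ecscr* 1.26 and 0.74. *Myh1* and *Atp2a1*, genes of fast muscle fibers, had 1.01 and 0.37. Their part in the values of the mural genes was not tested.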
